A study of Mus musculus with 4 samples.

Results

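Jarid2 and 9 genes of Polycomb repressive complex 2 (PRC2) were measured in T helper 17 (Th17) cells that lacked microRNA-155 (miR-155) and in wild-type cells. The 10 genes were Jarid2, Ezh1, Ezh2, Eed, Suz12, Rbbp4, Rbbp7, Mtf2, Phf19 and Phf1. They were chosen by symbol alone: every non-control array probe whose gene name in the scanner files equals one of them was taken. This gave 17 probes out of 55681 on the array, and 10 genes out of 26680 named ones. All 10 genes had at least 1 probe bright enough to test, and 16 of the 17 probes were tested.

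The study compared 2 groups of mouse CD4+ T cells, with 2 one-colour Agilent arrays each. The knockout (KO) group came from miR-155-/- animals and the wild-type (WT) group from miR-155+/+ animals. Cells of both genotypes carried a red fluorescent reporter of IL-17F. They were stimulated through CD3e and CD28 with antibodies, polarised with TGF-beta and IL-6, and sorted as CD4 positive and reporter positive. No age, sex, culture time or breeding scheme is given in the labels. The series' design text calls the 2 arrays of a genotype biological replicates, but the labels do not link arrays to animals or cultures. The p-values therefore reflect only how far these 4 samples spread, part of which may be technical. The knockout itself could not be checked, since no probe was named for the miR-155 gene.

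PRC2 is the enzyme complex that methylates lysine 27 of histone H3, a mark of silenced genes. Its core holds a methyltransferase (Ezh1 or Ezh2), the scaffold Suz12, the reader Eed, which binds the methylated histone tail and stimulates the enzyme, and a histone-binding protein (Rbbp4 or Rbbp7). Jarid2 is a relative of the JmjC histone demethylases that has no demethylase activity of its own and helps to bring PRC2 to chromatin, while Mtf2, Phf19 and Phf1 are the Polycomb-like proteins that define another form of the complex. In T helper cells PRC2 is known to keep cytokine and transcription factor genes of other lineages silent, and Jarid2 has been reported as a target of miR-155 in Th17 cells.

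The sequence of the deleted microRNA is shown because the report on Jarid2 rests on its seed. In the RefSeq annotation of mouse assembly GRCm38.p6, mature mmu-miR-155-5p lies at chr16:84714143-84714165 on the plus strand, and the capitals mark the seed, bases 2 to 8.
mmu-miR-155-5p: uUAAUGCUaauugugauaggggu
The letters that pair with the seed, AGCATTA in DNA, occurred in 0 of the 17 member probes and in 203 of all 55681 probes (0.365%). This says only that the short stretches read by the probes do not hold these letters. The 3' untranslated regions themselves were not analysed here.

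Levels below are log2 processed signals relative to the 75th percentile of the same array, so a value of 3 is 8-fold above that percentile, and levels of different probes are not set against each other. Differences are log2 KO minus WT with the standard error (SE) from a limma fit over all 19167 tested genes, each represented by its brightest probe, and intervals are 95% intervals of that fit. Second probes come from a limma fit over all 37221 tested probes. Coordinates of probes were copied from the scanner files (mouse assembly mm9). At a Benjamini-Hochberg adjusted p of 0.05 neither fit called any gene or probe (0 of 19167 genes and 0 of 37221 probes), while 2174 genes (11.3%) had an unadjusted limma p under 0.05: 1384 with higher and 790 with lower KO signals. For 2 arrays against 2, the smallest two-sided p of an exact permutation test of 1 gene is 0.333.

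The arrays were of similar depth, with 63.5% to 69.8% of spots well above background and no saturated spot. Across genes, the KO arrays correlated with each other at r = 0.988 and the WT arrays at r = 0.989, against 0.981 to 0.989 between genotypes, so replicates were no closer to each other than some pairs of opposite genotype. KO array 1 stood apart in the spatial correction, which divides each bright spot by a fitted surface. Its processed signals matched that division (within 0.01 of the ratio) for 8.24% of spots well above background, against 100% on the other 3 arrays. A surface near 1 gives such a match without any division. The 8.24% therefore need not have been corrected, and the other bright spots of KO array 1 were not. The arrays shared 1 slide and 1 scan. The KO arrays occupied row 2 of the slide and the WT arrays row 1, so an effect of the row cannot be told apart from one of the genotype. The CD4 T cell markers Cd4, Cd3e, Cd3g and Cd28 were bright on all arrays and differed by -0.18 to 0.05. The Th17 markers Il17f, Il17a, Il23r and Ccr6 had KO signals below WT signals on both arrays, with log2 differences of -3.17 to -2.01, at unadjusted limma p-values under 0.05 and adjusted p-values no lower than 0.255.

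Jarid2, the gene reported as a miR-155 target, had nearly the same signal with and without the microRNA. Its only probe (NM_021878, chr13:45016247-45016306, plus strand) read 3.95 and 3.60 on the KO arrays, against 3.64 and 3.72 on the WT arrays. KO array 1 was the highest and KO array 2 the lowest of the 4, so the KO values enclosed the WT values. The means were 3.78 ± 0.25 in the KO and 3.68 ± 0.06 in the WT (SD, n = 2 each). The difference was 0.09 ± 0.17 (SE), with an adjusted limma p of 0.828. As a fold, KO over WT was 1.07, with a 95% interval from 0.775 to 1.47. A fold above 1.47 or below 0.775 thus lay outside the interval of this fit, and a smaller difference in either direction was not excluded.

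The sign of the Jarid2 difference depended on KO array 1 and on the scaling. Without KO array 1 it was -0.08, and without KO array 2 it was 0.27. Scaling each array to its median gave -0.07, but the same scaling moved the median of all genes to -0.14, against 0.02 with the 75th percentile, and relative to the median of all genes the Jarid2 difference was 0.08 under both. Its adjusted limma p was between 0.572 and 0.977 in all 15 alternatives.

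**Figure D1:**
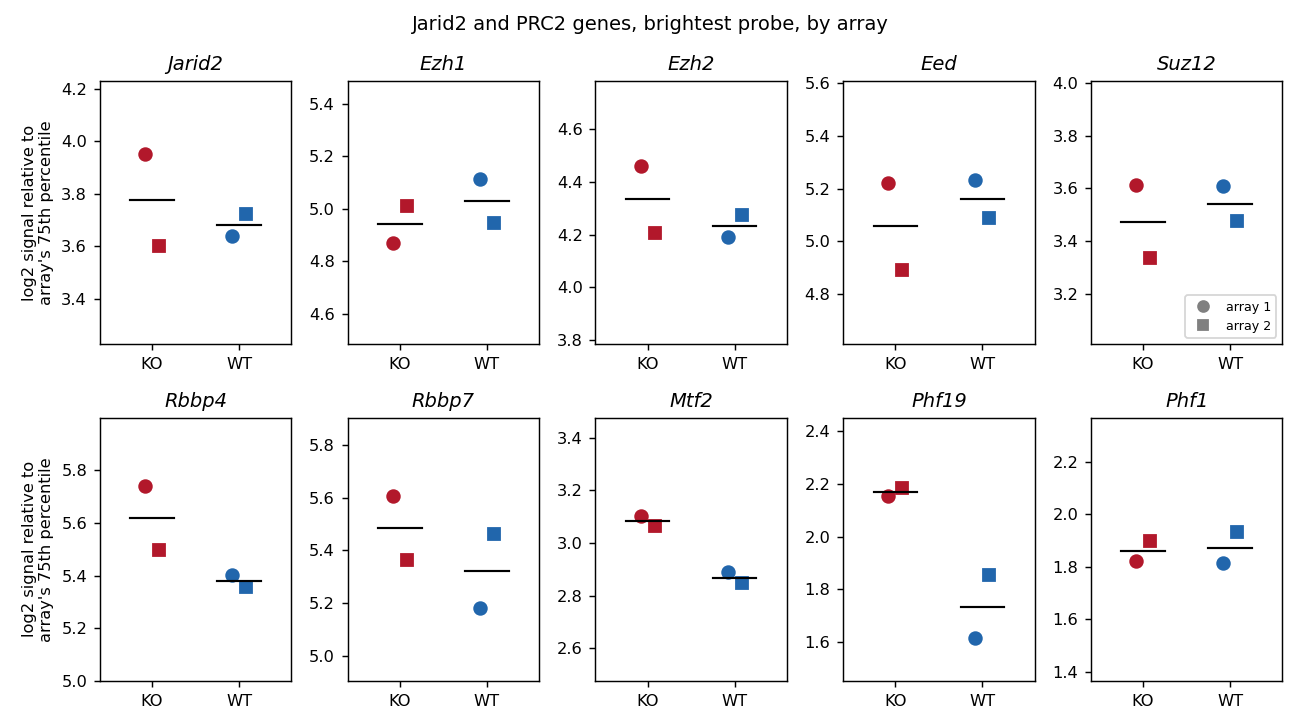
Log2 signal of the brightest probe of each gene, relative to the 75th percentile of its array, in miR-155 knockout (KO, red) and wild-type (WT, blue) cells. Circles are array 1 and squares array 2 of a genotype, bars are means of 2 arrays, and the vertical axis of every panel spans the same number of log2 units. The KO points of Rbbp4, Mtf2 and Phf19 lie above both WT points, and the genotypes overlap in the other 7 genes.

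The methyltransferase genes did not differ beyond the spread between arrays. Ezh2, the methyltransferase that dividing cells use most, read 4.46 and 4.21 on the KO arrays, against 4.19 and 4.28 on the WT arrays (NM_007971, chr6:47480307-47480366, minus strand). The genotypes overlapped, the difference was 0.10 ± 0.15 (SE), and the adjusted limma p was 0.793. Ezh1, its paralog with weaker catalytic activity, had 4 tested probes on chromosome 11. The brightest (chr11:101052430-101052489, minus strand) read 4.87 and 5.01 on the KO arrays, against 5.11 and 4.95 on the WT arrays, a difference of -0.09 ± 0.14 (SE) with an adjusted limma p of 0.800.

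The other Ezh1 probes gave no common direction. The probe at chr11:101052680-101052739, in a corner block at the right edge of the array, read 3.11 and 3.48 on the KO arrays, against 3.50 on WT array 1, while its spot on WT array 2 was flagged as an outlier and left out, for a difference of -0.21 ± 0.25 (SE) over 3 arrays. The probe at chr11:101054534-101054593 read -1.51 and -1.36 on the KO arrays, against -1.45 and -1.89 on the WT arrays, a difference of 0.23 ± 0.20 (SE). The last, at chr11:101058722-101058781 and assigned to another transcript (ENSMUST00000100417), differed by 0.03 ± 0.15 (SE). In all 3 the genotypes either overlapped or could not be compared on 4 arrays, and the mean of the Ezh1 probes measured on every array differed by 0.06, opposite in sign to the brightest probe.

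Eed and Suz12, which together with the methyltransferase make the smallest active complex, were both at a slightly lower mean in the KO with overlapping arrays. Eed (NM_021876, chr7:97103264-97103323, minus strand) read 5.22 and 4.89 on the KO arrays, against 5.23 and 5.09 on the WT arrays, a difference of -0.10 ± 0.17 (SE) with an adjusted limma p of 0.814. Suz12 (NM_199196, chr11:79847251-79847310, plus strand) read 3.61 and 3.33 on the KO arrays, against 3.61 and 3.47 on the WT arrays, a difference of -0.07 ± 0.16 (SE) with an adjusted limma p of 0.868. For both genes KO array 1 matched WT array 1 closely and KO array 2 was the lowest of the 4. Without KO array 2 the differences were 0.06 for Eed and 0.07 for Suz12.

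Of the histone-binding proteins, which PRC2 shares with histone deacetylase and chromatin assembly complexes, Rbbp4 was above WT on both KO arrays at both of its probes. The bright probe (NM_009030, chr4:128986934-128986993, minus strand) read 5.74 and 5.50 on the KO arrays, against 5.40 and 5.36 on the WT arrays. The difference was 0.24 ± 0.14 (SE), a KO over WT fold of 1.18 with an interval from 0.899 to 1.55 and an adjusted limma p of 0.549. The dim probe (chr4:128984623-128984682) read -1.63 and -1.81 on the KO arrays, against -2.05 on both WT arrays, a difference of 0.32 ± 0.14 (SE) with an adjusted limma p of 0.520. Neither probe passed the test, although both placed the KO arrays on the same side.

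Rbbp7, the closely related protein encoded on the X chromosome, overlapped between genotypes at both probes. The brighter (NM_009031, chrX:159216593-159216652, plus strand) read 5.61 and 5.36 on the KO arrays, against 5.18 and 5.46 on the WT arrays, a difference of 0.16 ± 0.17 (SE) with an adjusted limma p of 0.713. The other (chrX:159212501-159212560) read 4.27 and 4.04 on the KO arrays, against 4.01 and 4.20 on the WT arrays, and differed by 0.05 ± 0.16 (SE). KO array 1 was the highest of the 4 for both probes.

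The Polycomb-like genes held the largest difference of the 10 genes. These proteins carry a Tudor domain that reads a methyl mark on histone H3, and they bind DNA rich in CpG dinucleotides. Phf19 (NM_028716, chr2:34749588-34749646, minus strand) read 2.15 and 2.18 on the KO arrays, against 1.62 and 1.85 on the WT arrays. Both KO arrays lay above both WT arrays, with means of 2.17 ± 0.02 in the KO and 1.73 ± 0.17 in the WT (SD, n = 2 each). The difference was 0.43 ± 0.14 (SE), a KO over WT fold of 1.35 with an interval from 1.03 to 1.77. Its limma p was 0.0351 before and 0.413 after adjustment over all genes, so it did not pass the threshold.

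Mtf2, the Polycomb-like protein known in mouse embryonic stem cells for bringing PRC2 to CpG islands, also had KO arrays above WT arrays. Its measurable probe (NM_013827, chr5:108537924-108537983, plus strand) read 3.10 and 3.06 on the KO arrays, against 2.89 and 2.85 on the WT arrays. The 2 arrays of a genotype were within 0.05 of each other, and the difference was 0.22 ± 0.12 (SE), a KO over WT fold of 1.16 with an interval from 0.932 to 1.45 and an adjusted limma p of 0.523. The other Mtf2 probe (chr5:108536045-108536104) was not well above background on any of the 4 arrays and was not tested.

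Phf1, the third Polycomb-like gene, gave different pictures at its 2 probes. The brighter (NM_009343, chr17:27074715-27074774, plus strand) read 1.82 and 1.90 on the KO arrays, against 1.81 and 1.93 on the WT arrays, a difference of -0.01 ± 0.12 (SE) with an adjusted limma p of 0.974. The dimmer (chr17:27073236-27073295) read -1.88 and -1.66 on the KO arrays, against -2.13 and -2.32 on the WT arrays, a difference of 0.46 ± 0.16 (SE). Both KO arrays lay above both WT arrays there, with a limma p of 0.0438 before and 0.484 after adjustment over all probes. The brighter probe lay where the unapplied surface of KO array 1 mattered most among the members. Divided by that surface, KO array 1 read 2.51, and the difference became 0.33.

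**Figure D2:**
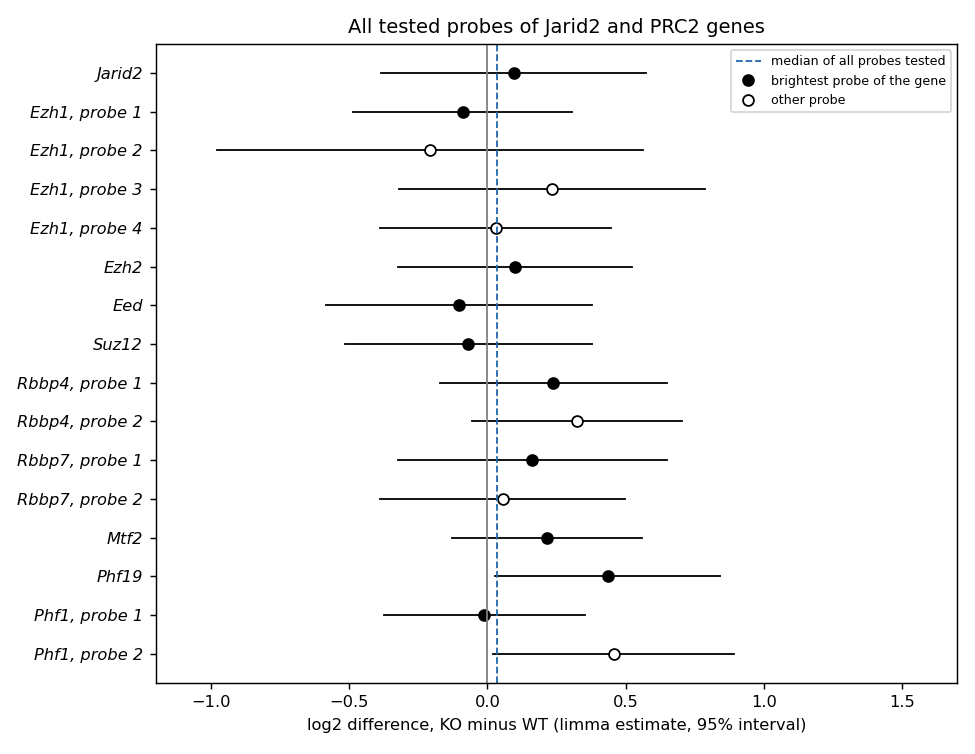
Log2 difference, KO minus WT, of the 16 tested probes, from the limma fit over all probes, with 95% intervals. Filled points are the brightest probe of a gene, open points its other probes, and the dashed line is the median of all 37221 tested probes (0.04). The intervals of the Phf19 probe and of the dimmer Phf1 probe lie above 0 before adjustment, and all the others include 0.

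As a group the 10 genes sat close to the bulk of the transcriptome. The KO mean was above the WT mean in 6 and below it in 4, against 52.4% above over all tested genes. In 3 genes (Rbbp4, Mtf2 and Phf19) both KO arrays lay above both WT arrays, which was also so for 25.4% of all tested genes. No member had both KO arrays below both WT arrays, against 22.4% of all genes. The genotypes thus did not overlap in 3 of the 10 members and in 47.7% of all genes. Phf19 was the only member with an unadjusted limma p under 0.05, against 7.22% of all genes called in that direction and 4.12% in the other. No member had such a p in 7 of the 15 alternatives: median scaling, the authors' matrix, no filter on dim probes, the replicate block, and the fits without KO array 1, KO array 2 or WT array 1. All 10 differences were within 0.5 on the log2 scale, as were those of 84.1% of all genes. The median difference was 0.10 in the members and 0.02 over all genes (for the members, 0.0028 without KO array 1 and 0.23 without KO array 2), and the median size of the difference was 0.102 in the members and 0.185 over all genes.

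By probe, 5 of the 16 tested member probes had both KO arrays above both WT arrays, against 26.2% of all tested probes, and 0 had both below, against 19.8%. The 5 were the 2 Rbbp4 probes, the bright Mtf2 probe, the Phf19 probe and the dimmer Phf1 probe. At an unadjusted limma p under 0.05 there were 2 (Phf19 and the dimmer Phf1 probe), against 6.79% of all probes higher in the KO, and 0 lower, against 3.32%. Probes of 1 gene share its transcripts and are not independent of each other.

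Which genotype had its 2 arrays further apart differed by gene. The KO gap was the wider in Jarid2 and Eed, for example, and the WT gap in Phf19 and Rbbp7. KO array 1 read above KO array 2 in 7 of the 10 genes, with a median gap of 0.244, against a median gap of 0.0916 over all genes. The 2 KO arrays were more than 0.2 apart in 6 of the 10 genes, and the 2 WT arrays in 2 of the 10. After division of KO array 1 by its surface, it read above KO array 2 in 9 of the 10 genes, with a median gap of 0.206. In that setting Suz12 had both KO arrays below both WT arrays, at a difference of -0.16.

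**Figure D3:**
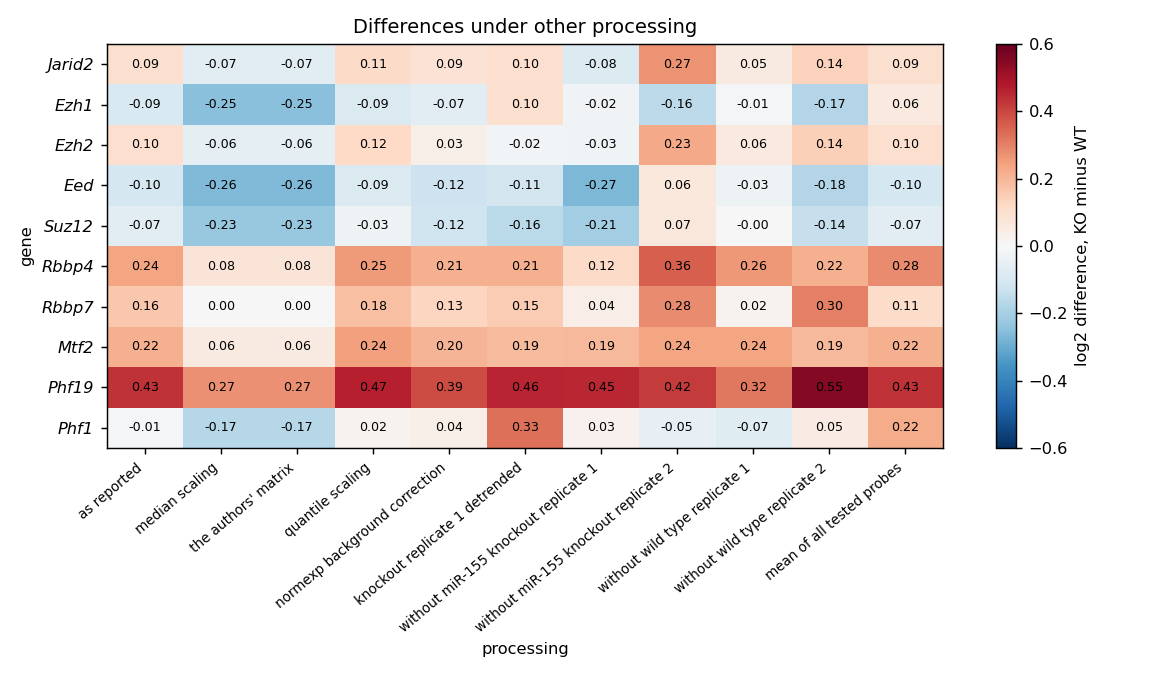
Log2 difference, KO minus WT, of each gene (rows) as reported and under 10 other ways of processing (columns). Values are of the brightest probe, except in the column for the mean of all tested probes. The value is written in each cell, with colour from blue (lower in KO) to red (higher in KO). Phf19, Rbbp4, Mtf2 and Rbbp7 stay above 0 in all columns, at 0.27 to 0.55 for Phf19, and the other 6 genes take both signs.

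The genes whose values followed those of Jarid2 most closely over the 4 arrays were Ift27, Gramd1b and Arglu1. Likeness was the Euclidean distance between mean-centred log2 values, which was 0.0153 for Ift27, 0.0165 for Gramd1b and 0.0229 for Arglu1, against a median of 0.374 over the 15221 genes compared. Ift27, a subunit of the intraflagellar transport machinery, read 4.46 and 4.10 on the KO arrays, against 4.15 and 4.24 on the WT arrays. Gramd1b, a sterol transfer protein, read 2.35 and 1.99 on the KO arrays, against 2.05 and 2.13 on the WT arrays. Arglu1, a nuclear protein rich in arginine and glutamate, read 4.64 and 4.33 on the KO arrays, against 4.34 and 4.42 on the WT arrays. All 3 shared the Jarid2 pattern of a high KO array 1 and a low KO array 2 around nearly equal WT arrays, and 4 arrays carry too little variety to set such a pattern apart from array effects.

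Other genes that bind or restrain PRC2 showed no common direction. Of 5 tested, 2 had a KO mean above and 3 below the WT mean, with a median difference of -0.01. No gene of the 5 had an unadjusted limma p under 0.05, against 11.3% of all genes. Epop, which links PRC2 to elongin, read 3.74 and 3.67 on the KO arrays, against 3.95 and 3.96 on the WT arrays, a difference of -0.24 ± 0.12 (SE). Ezhip, an inhibitor of the methyltransferase, was dim, at -3.50 and -3.65 on the KO arrays, against -4.67 and -3.77 on the WT arrays, a difference of 0.64 ± 0.34 (SE). The KO arrays of both genes lay outside the WT range, and the adjusted limma p-values were 0.496 for Epop and 0.514 for Ezhip.

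The Polycomb repressive complex 1 (PRC1) genes, whose products ubiquitinate histone H2A and bind the mark that PRC2 leaves, were set beside the members. Of 22 tested, 7 had a KO mean above and 15 below the WT mean, with a median difference of -0.12, against 0.02 over all genes. The median was -0.03 without KO array 1 and -0.02 with the mean of all probes of a gene. Probes of a gene could disagree: the brighter Bmi1 probe differed by -0.06 ± 0.17 (SE) and its other tested probe by 4.21. Array values of that other probe are not given here, so it cannot be told whether its difference rests on dim signals or on 1 array. Both KO arrays lay below both WT arrays in 9, against 22.4% of all genes, and above them in 5, against 25.4%. One of the 9 was Bcor, whose probe lay in a corner block at the right edge of the array that was dim on KO array 1, where it read 0.71, against 3.03 on KO array 2. At an unadjusted limma p under 0.05 stood 1 higher and 1 lower gene, against 7.22% and 4.12% of all genes. They were L3mbtl2, a subunit of a variant PRC1, at 0.57 ± 0.14 (SE), and Pcgf1, the ring finger subunit of another variant, at -0.50 ± 0.18 (SE). L3mbtl2 read 0.42 and 0.32 on the KO arrays, against -0.10 and -0.30 on the WT arrays, and Pcgf1 read -0.49 and -0.08 on the KO arrays, against 0.27 and 0.17 on the WT arrays. Their adjusted limma p-values were 0.337 for L3mbtl2 and 0.440 for Pcgf1.

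The opposing enzymes were likewise near 0. Among the 6 tested genes of the histone H3 lysine 27 demethylases and the H2A deubiquitinase complex, 2 had a higher and 4 a lower KO mean, with a median of -0.02. Asxl1, a partner of the deubiquitinase, differed by 0.19 ± 0.12 (SE) and Kdm6b, a lysine 27 demethylase that activated T cells use, by -0.17 ± 0.15 (SE). Of the 11 tested COMPASS and trithorax genes, which deposit activating methyl marks, 5 had a higher and 6 a lower KO mean, with a median of -0.01. Kmt2a, a methyltransferase of lysine 4, differed by 0.20 ± 0.25 (SE), and its paralog Kmt2b by -1.15 ± 0.84 (SE). The Kmt2b probe lay in the same corner blocks as Bcor, and on KO array 1 it read 0.70, against 3.11 on KO array 2. None of either list reached an unadjusted limma p under 0.05, against 11.3% of all genes.

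The JmjC and ARID relatives of Jarid2 split evenly, with 6 higher and 6 lower KO means among 12 tested and a median of 0.02. Arid3a, a DNA-binding regulator known from B cells, differed by 0.46 ± 0.46 (SE), with 1.52 and 2.76 on the KO arrays, against 1.84 and 1.52 on the WT arrays, so 1 KO array set the difference. Arid5b, a partner of a lysine 9 demethylase, differed by -0.33 ± 0.12 (SE), with 2.71 and 2.59 on the KO arrays, against 3.01 and 2.95 on the WT arrays. Arid5b had the lower unadjusted limma p of the pair, 0.0522, and an adjusted p of 0.443.

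Rbbp4 and Rbbp7 are shared with other complexes. Of 20 tested genes of the nucleosome remodelling, Sin3, chromatin assembly and related complexes, 7 had a higher and 13 a lower KO mean, with a median of -0.04, which was 0.09 without KO array 2. Both KO arrays lay above both WT arrays in 4, against 25.4% of all genes, and below them in 3, against 22.4%. None had an unadjusted limma p under 0.05, against 11.3% of all genes. Sin3b, the scaffold of a deacetylase complex, differed by 0.32 ± 0.16 (SE). Gatad2b, a nucleosome remodelling subunit, differed by -2.05 ± 1.45 (SE), but its probe lay in such a corner block on KO array 1, where it read -3.03, against 1.14 on KO array 2.

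Ezh2 and other PRC2 genes are known to be expressed with the cell cycle, so 20 cell cycle genes were set beside them. Of 19 tested, 15 had a KO mean above and 4 below the WT mean, against 52.4% above over all tested genes. Their median was 0.18, against 0.10 in the 10 members and 0.02 over all genes. The list median was 0.01 without KO array 1 and 0.04 without WT array 1. Both KO arrays lay above both WT arrays in 7, against 25.4% of all genes, and below them in 0, against 22.4%. None had an unadjusted limma p under 0.05, against 11.3% of all genes. Mki67, a protein of dividing cells, read 6.88 and 6.62 on the KO arrays, against 6.55 and 6.54 on the WT arrays, a difference of 0.21 ± 0.15 (SE), and Ccnb1, a mitotic cyclin, differed by 0.29 ± 0.13 (SE). Aurkb, a mitotic kinase, differed by -0.63 ± 0.71 (SE), but its dim probe lay in a corner block, was well above background on 1 of the 2 KO arrays only, and turned to 0.59 when KO array 1 was detrended. Whether cycling cells had a part in the members' values was not tested, and in such bulk samples fewer cells of a type and less RNA per cell cannot be told apart.

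**Figure D4:**
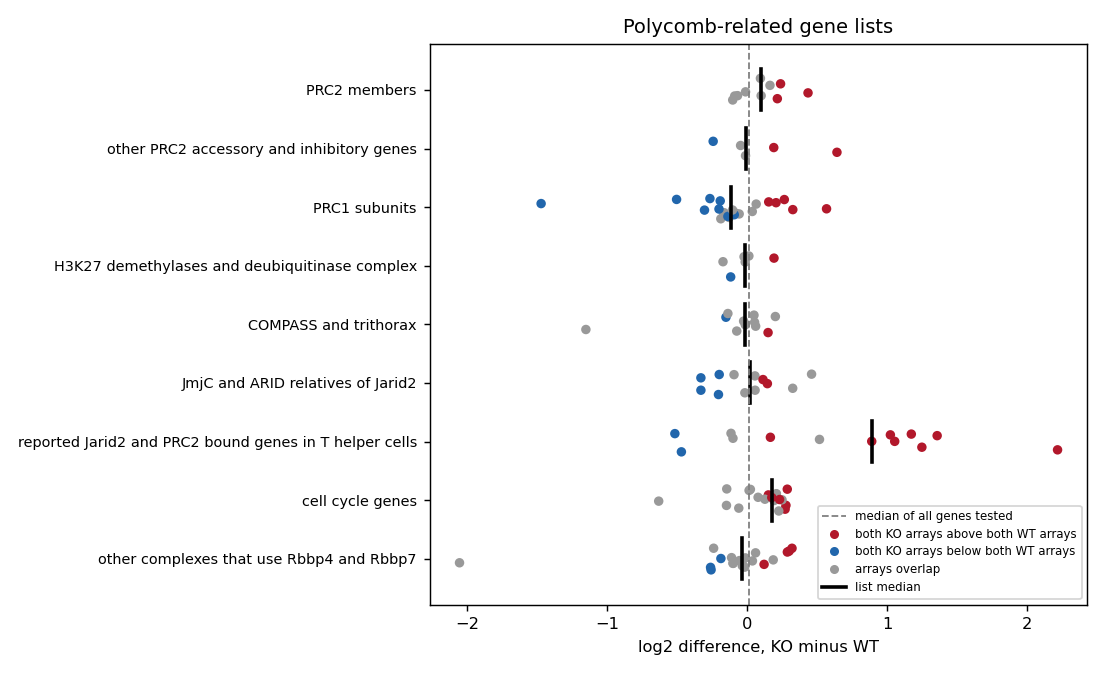
Log2 difference, KO minus WT, of every tested gene (points) in 9 lists (rows), with the list median as a black bar and the median of all tested genes as a dashed line. Red points have both KO arrays above both WT arrays, blue points both below, and grey points overlap. The 10 PRC2 members lie between -0.10 and 0.43, and the genes reported as bound by Jarid2 or PRC2 reach from -0.52 (Tbx21, a corner-block probe) to 2.22. The lists were compiled with earlier results of these data known.

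The last list holds genes that general knowledge of the literature names as bound or silenced by Jarid2 or PRC2 in T helper cells, and no binding data of these cells stand behind it. It was compiled with earlier results of these data known, so its counts beside the shares of all genes are descriptions and no test of PRC2 targets. Of 13 tested, 9 had a KO mean above and 4 below the WT mean, with a median of 0.89, against 0.10 in the members and 0.02 over all genes, and both KO arrays lay above both WT arrays in 8, against 25.4% of all genes, and below them in 2, against 22.4%. One of these 2 was Tbx21, the transcription factor of T helper 1 cells, whose corner-block probe differed by -0.52 and by -0.11 once KO array 1 was detrended. At an unadjusted limma p under 0.05 stood 6 genes, all with higher KO signals, against 7.22% of all genes, and none passed the adjusted threshold. Il13, a type 2 cytokine, read 3.30 and 2.15 on the KO arrays, against 0.94 and 0.08 on the WT arrays, a difference of 2.22 ± 0.51 (SE). Il4, the defining cytokine of T helper 2 cells, with its probe in a corner block, read 4.96 and 4.42 on the KO arrays, against 3.61 and 3.06 on the WT arrays, a difference of 1.36 ± 0.29 (SE). Gata3, the transcription factor of that lineage, read 5.65 and 5.12 on the KO arrays, against 4.62 and 3.66 on the WT arrays, a difference of 1.25 ± 0.40 (SE). The KO arrays were above the WT arrays in all 3, and in each the 2 KO arrays, like the 2 WT arrays, were 0.5 or more apart.

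The remaining 3 were Cdkn2a, Eomes and Prdm1. Cdkn2a, a cell cycle inhibitor locus and a classical PRC2 target, differed by 1.17 ± 0.29 (SE), with -2.46 and -3.23 on the KO arrays, against -4.00 and -4.03 on the WT arrays. Eomes, a transcription factor of cytotoxic and memory T cells, differed by 1.05 ± 0.30 (SE), with -1.54 and -1.91 on the KO arrays, against -3.14 and -2.42 on the WT arrays. Prdm1, which encodes the repressor Blimp-1, differed by 1.02 ± 0.18 (SE), with 1.32 and 1.09 on the KO arrays, against 0.36 and 0.01 on the WT arrays. Prdm1 had the lowest p of the list, 0.00449 before and 0.297 after adjustment in the limma fit.

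The 4 genes of the list reported for Jarid2 in miR-155-deficient Th17 cells, which are Il22, Il10, Il9 and Atf3, are given next. Il22 read -2.05 and -2.75 on the KO arrays, against -1.84 and -2.03 on the WT arrays, a difference of -0.47 ± 0.28 (SE). Il10 differed by -0.10 ± 0.23 (SE), Il9 by -0.12 ± 0.24 (SE) and Atf3, a stress-induced transcription factor, by 0.52 ± 0.31 (SE). The KO arrays lay outside the WT range for Il22 only, against 47.7% of all genes. None of the 4 had an unadjusted limma p under 0.05, against 11.3% of all genes. The list was compiled with earlier results of these data known, so its median, like its counts, is a description.

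Markers of other cells were measured beside these genes. Cd8a, a marker of CD8 T cells, read -2.65 and -2.37 on the KO arrays, against -3.89 and -3.73 on the WT arrays, a difference of 1.30 ± 0.16 (SE), while Cd8b1 differed by -0.13 ± 0.24 (SE). The B cell markers Cd79a and Pax5 differed by 0.31 and 0.73, the 5 tested myeloid markers by -0.67 to 0.49, and the natural killer marker Klrd1 by -0.47. Pax5 was dim, at -4.48 and -4.79 on the KO arrays, against -5.82 and -4.92 on the WT arrays. It was well above background on both KO arrays but on 1 WT array only, so it was tested through the group where it was higher. Ms4a1, Ncr1 and Klrb1c were not bright enough, and Emr1 is an older name of Adgre1. Cd79a had log2 levels of -2.02 and -2.69 on the KO arrays, against -2.48 and -2.85 on the WT arrays. As sums of linear signal in units of the array's 75th percentile, the CD8 markers were at 0.443 and 0.448 on the KO arrays, against 0.308 and 0.433 on the WT arrays, and the myeloid markers at 15.3 and 15.0 on the KO arrays, against 14.6 and 14.7 on the WT arrays. Klrd1 had log2 levels of 3.39 and 3.77 on the KO arrays, against 3.90 and 4.20 on the WT arrays. The part of these markers in the differences of the reported PRC2 targets was not tested.

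Promoter sequences were read because, in human cells, the genes for EZH2 and EED are known as targets of the E2F factors that act in dividing cells. The 250 bases before each transcription start in RefSeq (GRCm38.p6) were searched on both strands for 2 forms of the E2F consensus, TTTCCCGC and TTTGGCGC. One or the other occurred in 427 of 32851 windows (1.30%), and in 2 of the 12 windows of the members, those of Phf19 and Suz12. Both are shown with the matched letters in capitals. The Phf19 stretch, chr2:34914151-34914210 on the minus strand, holds the match on the antisense strand, and the Suz12 stretch, chr11:79992861-79992920 on the plus strand, on the sense strand.
Phf19: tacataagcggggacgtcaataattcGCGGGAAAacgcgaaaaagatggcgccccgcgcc
Suz12: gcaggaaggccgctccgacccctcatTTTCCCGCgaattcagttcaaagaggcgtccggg
The matches begin 208 bases before the start in Phf19 and 219 bases before it in Suz12. Of these 2 genes, Phf19 differed by 0.43 and Suz12 by -0.07. Apart from an Mtf2 window with 2, the member windows held 12 to 37 CpG dinucleotides, against a median of 6 over all windows. The share of 1.30% is over all windows and was not matched for CpG content. A match describes the letters only, and no binding was measured.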

How the data were processed

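Gene expression was measured on 4 one-colour Agilent arrays (2 miR-155 knockout, 2 wild type). The authors deposited 1 scanner output per array from Agilent Feature Extraction 10.5.1.1, per the submitters' processing notes. Its processed signal is a linear intensity, background-subtracted and spatially detrended per the file headers, and the fitted detrending surface is a linear ratio per the file headers. A matrix of log2 values was deposited too, made by steps not given in the sources used here. Each of its columns had a median of 5.54 and differed from the log2 processed signal of its array by 1 constant, within 0.001 for 99.4% to 99.5% of probes. Scale and direction were thereby settled, and the matrix served as an alternative only.

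Control and outlier spots were left out, spots of a probe were averaged, and each array's 75th percentile over non-control probes was subtracted from its log2 signals. Probes were named through RefSeq (GRCm38.p6): of 55681, accessions named 26762, symbols 3819 and synonyms 639, while 24461 were left under their array name. Testing required a signal well above background on both KO arrays or both WT arrays, and a gene was represented by its brightest probe. KO and WT were compared by lmFit and eBayes of limma 3.58.1 (R 4.3.3), with 2 residual and 2.16 prior degrees of freedom, and p-values were adjusted by Benjamini-Hochberg over all genes or all probes. The fit was tested on simulated data. The number of arrays limits the precision.

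The members, gene lists and tests were chosen with earlier results of these data known. Named from each list were genes with an unadjusted p under 0.05 and no overlap between genotypes (at most 6), and failing that the 2 largest differences, plus the markers (2 of which are not reported here) and the 3 genes most like Jarid2. Others named (Mki67, Bcor, Bmi1, Tbx21, Il22, Il10, Il9, Atf3) were chosen after their values were seen. Same-numbered arrays did not deviate together (r = -0.001 over 19147 genes), so the numbers were not taken as pairs.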

Additional observations from a re-analysis of the deposited data

How the results depend on the processing

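Over 15 alternatives the 10 members gave 150 differences, of which 133 kept their sign and 17 turned it. None passed an adjusted p of 0.05, the lowest being 0.193 for Phf19 with normexp background correction, and Mtf2, Phf19, Rbbp4 and Rbbp7 kept their sign in every alternative. Median scaling and the authors' matrix, which both put the median of all genes at -0.14, gave -0.066 for Jarid2 and -0.061 for Ezh2, 1 member wholly above the wild type and 3 wholly below. Detrending knockout array 1 gave 0.096 for Ezh1, -0.016 for Ezh2 and 0.33 for Phf1, with 1 member wholly below. The shares of all genes wholly above or below under these settings are not given, so these counts do not set the members apart. The mean of all probes gave 0.059 for Ezh1 and 0.22 for Phf1. Normexp gave 0.035 and quantile scaling 0.020 for Phf1. Leaving out 1 array at a time gave -0.080 to 0.27 for Jarid2, -0.27 to 0.063 for Eed, -0.026 to 0.23 for Ezh2, -0.071 to 0.048 for Phf1 and -0.21 to 0.070 for Suz12. A genotype left with 1 array needs only that array outside the other genotype's 2, which is met more easily than with 2 arrays each. Counts of members wholly above or below are therefore not comparable with those of 4 arrays, and the share over all genes is not given. Over these 4 fits 3 to 7 members lay wholly above and 1 to 3 wholly below, the 7 without knockout array 2. They called 0 to 27 genes and 0 to 53 probes, and both highest counts came without wild-type array 1. With 1 array of a genotype left, that array is assumed to vary like the others. The cause of these shifts was not tested, and the fits with 1 array left out also hold fewer arrays.

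With the replicate block, 0 genes were called, 1710 had an unadjusted p under 0.05 against 2174 without it, and Jarid2 differed by 0.09 ± 0.20 (SE) with an adjusted limma p of 0.902. No member passed the adjusted threshold with or without the block, and Phf19 lost its unadjusted p under 0.05 with it. Normexp gave 4230 genes at an unadjusted p under 0.05, and leaving out wild-type array 1 gave 1426. Probes in the corner blocks at the right edge were left out in 1 alternative. Those named are Gatad2b, Bcor, Kmt2b, Il4, Aurkb, Tbx21 and 1 dimmer Ezh1 probe.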
